A study of Mus musculus with 2 samples.

Results

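The 9 genes described here are transcription factors and markers of naive T cells: Satb1, Lef1, Tcf7, Bach2, Dapl1, Igfbp4, Actn1, Als2cl and Itm2a. They were chosen by name, with earlier results of these data known, so counts of calls among them are not independent of these data. Each was found as 1 row among the 55487 genes counted in both libraries. Single-cell RNA was measured in CD4 T cells of wild-type male C57BL/6J mice aged 8 weeks, with no treatment named. The tissues were labelled BAT, SAT and VAT, which in this field stand for brown, subcutaneous and visceral adipose tissue, and spleen. The visceral depot is not named. Cells were sorted in 2 rounds as DAPI-negative cells with surface TCRb, CD3 and CD4. Each of 2 droplet libraries (experiments 1 and 2) pooled 8 samples that carried hashtag antibodies, 2 of each tissue, so that each tissue had 4 hashed samples. Replicates 1 and 2 below are those of experiment 1, and replicates 3 and 4 those of experiment 2. The submitters call the pairs biological duplicates but do not say whether they are separate animals. The p-values may therefore measure only the spread between these samples, which may be technical. Whether samples of different tissues with the same replicate number came from the same animal is also not known here. Fat was digested with collagenase II and spleen only mechanically, so that a difference between a fat depot and spleen and an effect of digestion cannot be told apart.

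After filtering, 3985 cells of experiment 1 and 9004 of experiment 2 were kept, and the hashtags assigned 3063 and 6089 of them to 1 sample. The T cell gate left 8910 assigned cells, 248 to 953 per hashed sample, with a median of 4124 to 6582 unique molecular identifiers (UMIs, each standing for 1 captured RNA molecule) per cell. Levels are given as counts per 1000000 UMIs (CPM) of the summed cells of a hashed sample. The T cell markers summed to 4762 to 6962 CPM over the Foxp3-positive and Foxp3-zero sums of the hashed samples described below. Hashtags separated poorly for SAT replicate 1 (1.81 SD between marked and unmarked cells, with 17 of 507 assigned cells passing a stricter rule) and for BAT replicate 4 (3.24 SD, 112 of 415). Calls of the 9 genes that were lost or gained without 1 of these samples are named where they appear. The libraries shared 20 cell barcodes.

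A naive T cell has left the thymus and has not yet met its antigen, and it circulates between blood and lymphoid tissue. Satb1, Lef1, Tcf7 and Bach2 encode nuclear factors that hold T cells in this state or prepare them for it. The other 5 genes were taken as markers of naive cells. Regulatory T cells (Treg cells), defined by the factor Foxp3, and memory or effector cells, many of which carry the chemokine receptors Cxcr3 or Cxcr6, are the natural contrasts to naive cells in a fat depot.

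Satb1, on chromosome 17, encodes an organizer of chromatin loops. Lef1, on chromosome 3, and Tcf7, on chromosome 11, encode related HMG-box factors that bind beta-catenin. Bach2, on chromosome 4, encodes a repressor that competes with AP-1 factors. Dapl1 (death-associated protein-like 1) lies on chromosome 2 at 59484653 to 59505020, and Igfbp4, which encodes a secreted binder of insulin-like growth factors, on chromosome 11 at 99041244 to 99054392. Actn1 (chromosome 12) encodes the actin cross-linker alpha-actinin 1, Als2cl (chromosome 9) a relative of the protein alsin, and Itm2a (chromosome X, 107397099 to 107403376) a membrane protein. All 9 are annotated as protein-coding genes on build GRCm38.

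The stretches before the starts of Dapl1 and Itm2a are shown because cells with only 1 of these 2 genes are compared at the end of the results. Each is the 250 bases before the start in RefSeq (GRCm38.p6), written along the strand of the gene. Capitals mark GTAAACA, the reverse complement of TGTTTAC, a motif bound by FOXO factors.
Dapl1, chr2:59484403-59484652, plus strand: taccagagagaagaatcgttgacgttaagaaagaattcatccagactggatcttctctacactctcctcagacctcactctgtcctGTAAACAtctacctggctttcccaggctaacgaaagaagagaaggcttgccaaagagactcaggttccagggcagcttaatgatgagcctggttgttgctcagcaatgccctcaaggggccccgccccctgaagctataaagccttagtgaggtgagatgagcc
Itm2a, chrX:107403361-107403610, minus strand: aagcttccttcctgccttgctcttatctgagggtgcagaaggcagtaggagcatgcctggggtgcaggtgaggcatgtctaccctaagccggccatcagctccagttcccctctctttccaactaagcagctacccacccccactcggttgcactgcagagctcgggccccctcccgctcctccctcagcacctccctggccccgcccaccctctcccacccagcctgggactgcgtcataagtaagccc
RefSeq held 18 start windows for the 9 genes, each of 250 bases before and 50 after a start. TGTTTAC, read on both strands, was in a window of 2 of the 9 genes (Dapl1 at position 87 and Tcf7 at position 252, counted from the 5′ end of the window), likewise 2 of the 18 windows, and in 3.65% of 32851 windows of the same length. CTTTGA, bound by TCF and LEF factors, was in a window of 2 genes (Lef1 at positions 71 and 131 of its window 4, Bach2 at position 158), which is 2 of their 18 windows, and in 16% of all windows. TGANTCA, bound by BACH and AP-1 factors, was in none of the 18 windows and in 7.81% of all. These matches only describe the letters, and no such letters were found in the Itm2a window.

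To place the genes in Treg cells, cells with at least 1 Foxp3 UMI were compared with cells without any, within each hashed sample. All 9 genes were lower in the Foxp3-positive cells. Dapl1, Igfbp4 and Tcf7 fell most, and Bach2 and Itm2a least. The comparison used 13 hashed samples with at least 20 cells in each class (555 Foxp3-positive and 7049 Foxp3-zero cells), and BAT replicates 2 and 3 and SAT replicate 2 were left out with 12, 14 and 18 Foxp3-positive cells. Sums held 93567 to 363626 UMIs per sample in Foxp3-positive cells and 1667826 to 4597543 in Foxp3-zero cells. Summed counts cannot tell fewer cells with a transcript from less RNA per cell. A cell without a Foxp3 UMI may still be a Treg cell, because 1 transcript can go uncaptured.

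Among the nuclear factors, Tcf7 was at 68.8, 161 and 270 CPM (lowest, median and highest of 13 samples) in Foxp3-positive cells against 305, 379 and 539 CPM in Foxp3-zero cells. Every Foxp3-positive value of Tcf7 lay under every Foxp3-zero value, and the log2 fold change was -1.49 ± 0.10 (SE, edgeR's quasi-likelihood test, adjusted p = 1.7e-13). Lef1 stood at 74.3, 171 and 296 CPM against 167, 288 and 612 CPM, lower in 13 of 13 samples although the groups overlapped across tissues, with a log2 fold change of -1.21 ± 0.10 (adjusted p = 5.8e-12). The chromatin organizer Satb1 was lower in 12 of 13 samples, with 26.2, 105 and 476 CPM against 120, 202 and 497 CPM and a log2 fold change of -1.11 ± 0.15 (adjusted p = 5.2e-07). Bach2 overlapped widely. Its 7.80, 25.5 and 74.8 CPM against 28.3, 42.6 and 69.5 CPM were lower in 9 of 13 samples, at -0.57 ± 0.17 (adjusted p = 0.018). The Bach2 call was lost without VAT replicate 1 (adjusted p = 0.061), with library-size scaling (-0.44, adjusted p = 0.080) and after thinning every cell to 1300 UMIs (-0.07, adjusted p = 0.96), and in experiment 2 alone its change was 0.09.

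Of the markers, Dapl1 was at 0, 41.3 and 103 CPM in Foxp3-positive cells against 72.8, 177 and 432 CPM in Foxp3-zero cells. It was lower in 13 of 13 samples, at a log2 fold change of -2.54 ± 0.12 (edgeR, adjusted p = 1.5e-17). The only sample without a Dapl1 UMI in Foxp3-positive cells was VAT replicate 4, where 3 UMIs, the limit that a count of 0 allows, would be 18.7 CPM. Igfbp4 was at 0, 25.5 and 99.2 CPM against 55.0, 154 and 334 CPM, lower in 13 of 13 samples by a log2 fold change of -2.16 ± 0.22 (adjusted p = 1.6e-09). Its zeros were in BAT replicate 1 and VAT replicate 3, with limits of 23.4 and 8.25 CPM. Actn1 (log2 fold change -1.41 ± 0.16, adjusted p = 1.8e-08) and Als2cl (-1.37 ± 0.15, adjusted p = 1.8e-08) were also lower in each of the 13 samples. Itm2a differed least among the markers, with 0, 33.8 and 54.6 CPM against 18.4, 43.4 and 84.6 CPM, lower in 11 of 13 samples (-0.57 ± 0.17, adjusted p = 0.015). The Itm2a call was lost with DESeq2 (adjusted p = 0.055) and with plain library-size scaling (0.066).

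Of all 7385 genes tested in this comparison, 9.17% were called higher and 7.95% lower at an adjusted p under 0.05, and the median log2 fold change was -0.01 over all genes and -1.37 over the 9. Scaling by library size instead of edgeR's trimmed mean (TMM) moved the median of all genes to 0.11 and the share of higher among called genes from 53.6 to 76.5%, and the direction of none of the 9 changed. Of 15 other naive and recirculating genes, 8 were lower and 1 was higher (median -0.32). Ccr7, the homing receptor for lymphoid tissue, fell by 1.13 on the log2 scale, and Txk fell by 1.03. Cd27, a costimulatory receptor, was the higher one (0.50). All 7 Treg genes tested were higher, with a median of 3.28. Of 11 immediate early and heat shock genes, which respond to cell handling, 7 were higher and none lower (median 0.67). Of 12 memory and effector genes, 5 were higher and 4 lower (median 0.07). B cell markers summed to 9.55 to 128 CPM in Foxp3-positive cells and 2.40 to 12.7 CPM in Foxp3-zero cells. These were UMIs of Cd79a, Cd79b and Igkc, while Ms4a1 had no UMI in Foxp3-positive cells. Adipocyte markers reached 242 CPM in the Foxp3-positive cells of 1 BAT sample, of which nearly all UMIs over the samples were Fabp4 and none were Plin1. The part of these lists in the results was not tested.

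**Figure D1:**
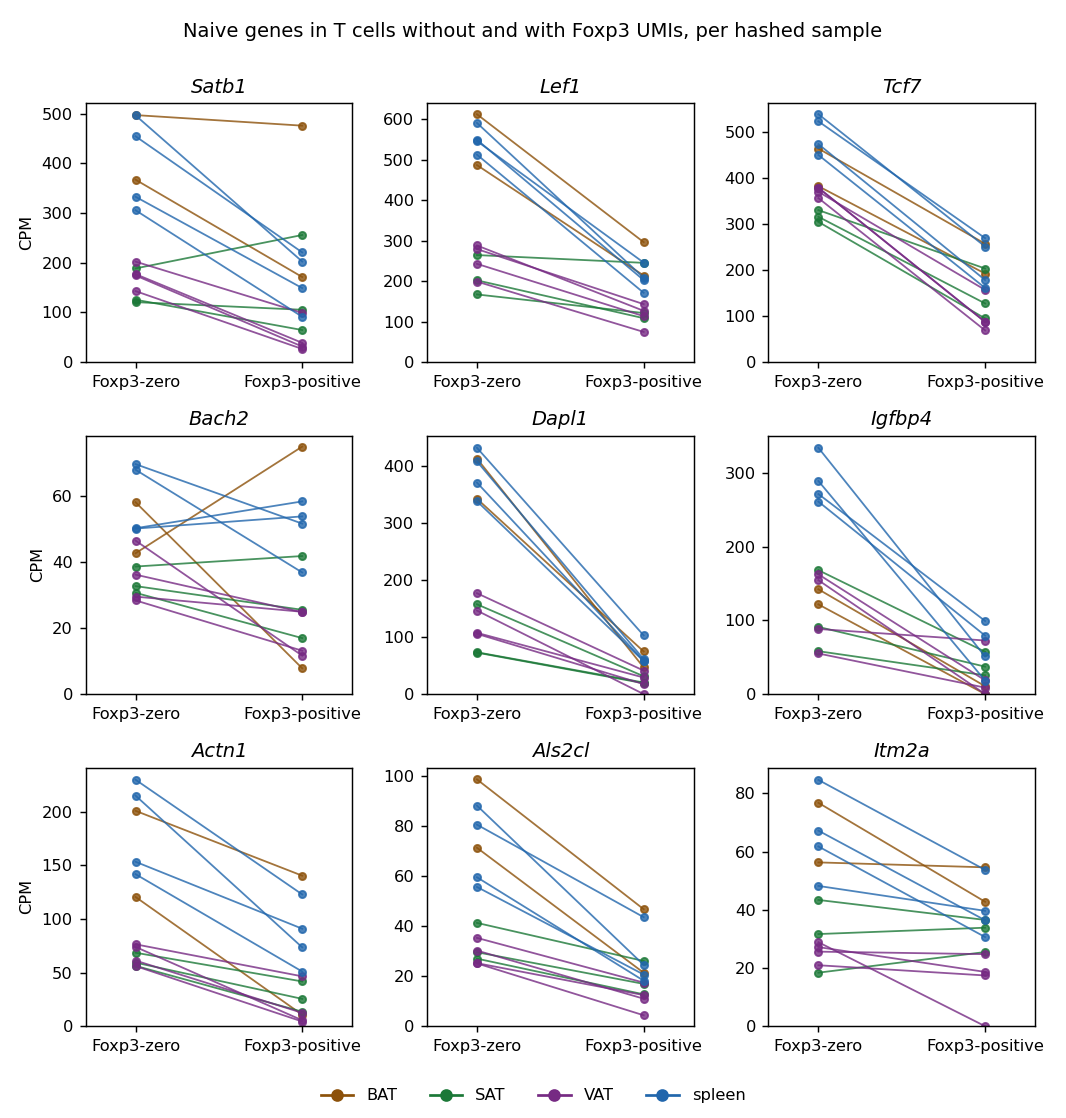
CPM of each of the 9 genes in Foxp3-zero and Foxp3-positive T cells. Each point is a hashed sample (13 samples, coloured by tissue), and a line joins the 2 classes of a sample. Most lines fall to the right, for Tcf7 without overlap between the classes (highest Foxp3-positive value 270 CPM, lowest Foxp3-zero value 305 CPM), whereas those of Bach2 and Itm2a cross.

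The same contrast was then drawn among cells without a Cxcr3 or Cxcr6 UMI, which leaves out the cells that showed either chemokine receptor. It could be made in 8 hashed samples (BAT replicate 1, SAT replicate 4, VAT replicates 1, 3 and 4, and spleen replicates 2, 3 and 4), with 266 Foxp3-positive and 3325 Foxp3-zero cells. There 8 of the 9 genes were lower, against 7.09% of 5246 genes (7.66% were higher). Lef1 was at 121, 188 and 365 CPM (lowest, median and highest) in Foxp3-positive cells and at 479, 527 and 663 CPM in Foxp3-zero cells. Tcf7 was at 66.0, 170 and 324 CPM against 441, 478 and 559 CPM. Dapl1 lay at 0, 58.0 and 112 CPM against 197, 320 and 461 CPM. The classes did not overlap for these 3 genes or for Igfbp4 (0, 63.3 and 114 CPM against 133, 283 and 360 CPM). Overlap was read for the 9 genes only, and the share of all genes without overlap is not given here. The log2 fold changes were -1.62 ± 0.11 for Lef1, -1.62 ± 0.14 for Tcf7, -2.71 ± 0.16 for Dapl1 and -2.33 ± 0.21 for Igfbp4. Als2cl (-1.46 ± 0.22), Actn1 (-1.44 ± 0.17) and Satb1 (-1.43 ± 0.16) followed. Itm2a was at -0.69 ± 0.20 (edgeR, adjusted p = 0.016, lost with DESeq2 at 0.094, with library-size scaling at 0.091, and without spleen replicates 3 or 4). Bach2 was at -0.58 ± 0.21 and did not pass the test (adjusted p = 0.069), with a lower value in 5 of 8 samples. It was called without spleen replicate 3 (0.042) or 4 (0.033), with no low-count filter (0.0030), without the T cell gate (0.048) and with sums per library (6.3e-04). The share of higher among called genes was 51.9%, and 80.5% with library-size scaling. Memory and effector genes moved with this contrast: 7 of 11 were higher and 2 lower in the Foxp3-positive cells (median 1.07). S100a4, a calcium-binding protein abundant in memory cells, had a median of 956 CPM in these Foxp3-positive cells, beside 1106 CPM in those of the contrast before. Of 11 immediate early and heat shock genes 6 were higher and none lower (median 0.83). The part of these lists in the result was not tested. This contrast shares cells with the one before and is not independent of it.

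A contrast by Cxcr3 and Cxcr6 was then drawn among Foxp3-zero cells of all 16 hashed samples (2946 cells with a UMI of either gene and 5365 with neither). All 9 genes were lower in the cells with a chemokine receptor UMI. Igfbp4 fell by 3.37 on the log2 scale and Tcf7 by 0.86, the lowest and highest of the 9. Of all 8118 genes, 21.8% were called lower and 44.3% changed in either direction. The median log2 fold change was -2.17 over the 9 and -0.01 over all genes. With library-size scaling the share of higher among called genes rose from 50.8 to 80.1%, with all 9 still called lower.

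Lef1 was at 70.4, 119.5 and 412 CPM with a chemokine receptor UMI and at 429, 534 and 663 CPM with neither, without overlap (-2.17 ± 0.13, SE). Satb1 was at 31.1, 88.7 and 360 CPM against 315, 409 and 595 CPM (-2.39 ± 0.20), lower in 16 of 16 samples. Bach2, at 9.83, 21.4 and 45 CPM against 41.1, 58.7 and 84.5 CPM, was also lower in 16 of 16 (-1.60 ± 0.11). Tcf7 stayed at 223, 296 and 615 CPM against 402, 491 and 668 CPM (-0.86 ± 0.09), and in 2 of the 16 samples it was higher in the cells with a receptor UMI. Those were both spleen samples of experiment 1, at 615 and 561 CPM against 533 and 518 CPM. They held only 21 and 42 cells with a receptor UMI.

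Among the markers, Igfbp4 was at 5.38, 25.5 and 210 CPM against 133, 276 and 360 CPM (-3.37 ± 0.23). Dapl1 was at 19.4, 64.1 and 258 CPM against 197, 309 and 461 CPM (-2.55 ± 0.16). Actn1 changed by -2.51 ± 0.17, Als2cl by -2.15 ± 0.14 and Itm2a by -1.23 ± 0.11. These 5 were lower in 16 of 16 samples. Adjusted p-values for the 9 genes ran from 2.0e-14 (Lef1) to 2.1e-09 (Tcf7) in edgeR's quasi-likelihood test. Igfbp4 in the receptor-positive cells was at 210, 144, 58.0 and 63.4 CPM in spleen replicates 1 to 4, above the 5.38 to 25.9 CPM of the 8 SAT and VAT samples, a difference that was not tested. These spleen sums held 21, 42, 69 and 68 cells, and the BAT values are not given here. Of the 15 other naive genes all were lower (Ccr7 -2.88), and all 12 memory and effector genes were higher (S100a4 3.10, Ccl5 3.06). The cells with neither UMI, called naive-enriched below, are not all naive, since S100a4 had 196 to 272 CPM in those of SAT and VAT. Nor are the cells with a receptor UMI shown to be all memory cells, with S100a4 at 79.8 CPM in the lowest sample.

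**Figure D2:**
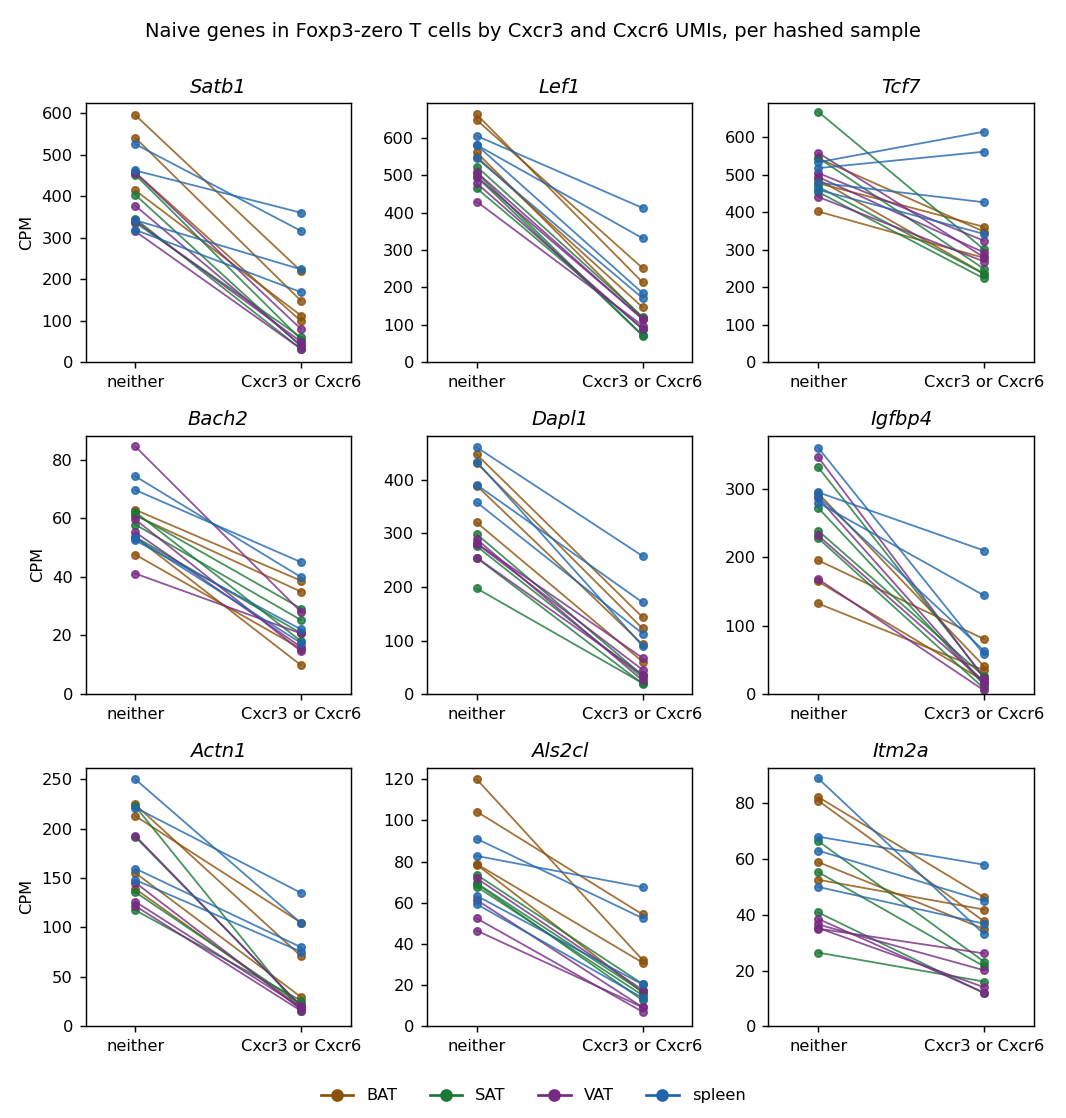
CPM of each of the 9 genes in Foxp3-zero cells with neither Cxcr3 nor Cxcr6 UMIs and in those with either. Points are the 16 hashed samples, coloured by tissue, with a line joining the classes of a sample. Every line falls except those of Tcf7 in 2 spleen samples.

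To compare tissues, Foxp3-zero cells of the 16 samples were first taken as a whole. In these, all 9 genes were higher in BAT than in SAT and VAT, and all 9 were lower in SAT and VAT than in spleen. Dapl1 measured 413, 380, 267 and 343 CPM in BAT replicates 1 to 4. It measured 72.8, 116, 158 and 73.4 CPM in SAT and 108, 106, 177 and 147 CPM in VAT. Spleen had 409, 432, 371 and 339 CPM. BAT and spleen overlapped and both lay above every SAT and VAT sample. The log2 fold change of Dapl1 was 1.91 ± 0.20 (SE) for BAT over SAT, 1.45 ± 0.19 for BAT over VAT and -0.11 ± 0.18 for BAT over spleen (adjusted p = 0.80).

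Over the 6 pairs of tissues and 9 genes, 37 of 54 tests were called. Of all 10083 genes, 15.9% were higher in BAT than in SAT (33.7% changed in either direction) and 13.8% higher in BAT than in VAT (29.8%). Lower than in spleen were 18.9% in SAT (40.2% in either direction) and 16.5% in VAT (36.2%, with 19.7% higher). Library-size scaling moved the share of higher among called genes from 47.0 to 24.2% for BAT and SAT, from 46.3 to 28.5% for BAT and VAT, from 53.0 to 70.5% for SAT and spleen and from 54.5 to 66.2% for VAT and spleen. It moved the median of all genes from 0.01 to -0.15 for BAT and SAT, the largest such shift of these pairs. The other BAT to SAT differences ran from 0.54 ± 0.08 for Tcf7 to 1.66 ± 0.15 for Satb1, and those between SAT and spleen from -0.66 ± 0.08 for Tcf7 to -1.64 ± 0.21 for Igfbp4. No gene of the 9 was called between SAT and VAT (4.41% of all genes were, 2.54% as higher in SAT, and Dapl1, at -0.46 ± 0.21, had the largest difference of the 9). Without SAT replicate 3 Dapl1 was called lower in SAT than in VAT (-0.79, adjusted p = 0.014), and without SAT replicate 2 Tcf7 was (-0.27, adjusted p = 0.039). With no low-count filter Dapl1 (adjusted p = 2.8e-06) and Lef1 (0.021) were. Between BAT and spleen only Igfbp4 was called, lower in BAT at 122, 177, 242 and 142 CPM against 289, 261, 334 and 271 CPM in spleen. The 2 groups did not overlap, and the log2 fold change was -0.72 ± 0.20 (edgeR, adjusted p = 0.026, with 2.57% of all genes called lower, 5.31% higher and 7.87% either way). That call was lost with DESeq2 (adjusted p = 0.15) and without either of BAT replicates 1 and 4 or spleen replicates 1 and 2 (adjusted p 0.071 to 0.090), with stricter hashtags (0.052) and without the T cell gate (0.060). The Igfbp4 difference of BAT and VAT (0.68 ± 0.21, adjusted p = 0.017) was lost with DESeq2 (0.076), without BAT replicate 2 or 3 or VAT replicate 2 (0.064 to 0.086), after thinning (0.053), with stricter hashtags (0.065) and without the gate (0.074). That of BAT and SAT (0.92 ± 0.22) was lost with stricter hashtags (adjusted p = 0.086). Bach2 was no longer called between BAT and SAT or VAT after thinning (0.17 and 0.19). Tissue pairs share samples and are not independent of each other.

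The make-up of the cells also differed between tissues, and its part in these levels was not tested. Cells with neither chemokine receptor UMI made up 80.9 to 90.5% of Foxp3-zero cells in BAT and 87.8 to 92.4% in spleen, against 24.7 to 50.9% in SAT and 32.0 to 51.8% in VAT. The tissues were then compared again within these naive-enriched cells (1567 from BAT, 792 from SAT, 912 from VAT, 2094 from spleen). Of the 54 tests 22 were called there. The median log2 fold change of the 9 genes was 0.32 for BAT over SAT and 0.33 for BAT over VAT. In all Foxp3-zero cells these medians were 1.42 and 1.32. The largest between BAT and SAT was 0.65 ± 0.09 (SE), for Dapl1, and the largest between BAT and VAT 0.99 ± 0.14, for Itm2a.

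Dapl1 measured 447, 431, 320 and 389 CPM in the naive-enriched cells of BAT and 434, 461, 391 and 358 CPM in those of spleen. It measured 254, 276, 299 and 197 CPM in SAT and 255, 289, 281 and 281 CPM in VAT. Every SAT and VAT value lay under every BAT and spleen value. The log2 fold change was 0.65 ± 0.09 for BAT over SAT (edgeR, adjusted p = 4.7e-06), 0.49 ± 0.09 for BAT over VAT (1.4e-04), -0.66 ± 0.09 for SAT over spleen (1.1e-06) and -0.50 ± 0.09 for VAT over spleen (4.7e-05).

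Itm2a measured 59.0, 52.6, 81.0 and 82.3 CPM in BAT, 63.1, 50.02, 68.1 and 89.0 CPM in spleen, 26.4, 40.9, 66.5 and 55.4 CPM in SAT and 35.3, 35.0, 38.6 and 36.5 CPM in VAT. VAT lay apart from BAT and spleen, while SAT overlapped all 3. The differences were 0.99 ± 0.14 for BAT over VAT (edgeR, adjusted p = 3.2e-06), -0.92 ± 0.13 for VAT over spleen (3.5e-06), 0.54 ± 0.14 for BAT over SAT (0.013) and -0.47 ± 0.13 for SAT over spleen (0.017). Both Itm2a differences with SAT were lost without SAT replicate 1 (adjusted p = 0.075 and 0.083), which has a weak hashtag, and without SAT replicate 4 (0.071 and 0.086). That between SAT and spleen was also lost without spleen replicate 4 (0.13) and with DESeq2 (0.065).

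Lef1 followed Dapl1 on a smaller scale. Its values in BAT were 663, 648, 561 and 549 CPM and in spleen 605, 581, 545 and 581 CPM, all above those in SAT (496, 523, 465 and 506 CPM) and VAT (508, 429, 479 and 496 CPM). The log2 differences were 0.32 ± 0.06 for BAT over SAT (edgeR, adjusted p = 6.3e-04), 0.33 ± 0.06 for BAT over VAT (3.2e-04), -0.21 ± 0.06 for SAT over spleen (0.021) and -0.22 ± 0.06 for VAT over spleen (0.013). The difference with spleen was lost without SAT replicate 1 or 3 or spleen replicate 4 for SAT, and without VAT replicate 2 or spleen replicate 4 for VAT (adjusted p 0.058 to 0.085).

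Satb1 and Als2cl had their highest means in BAT. Satb1 measured 541, 595, 457 and 414 CPM in BAT and 462, 526, 319 and 342 CPM in spleen, where replicates of experiment 2 were the lower ones in both tissues. With the experiment in the model, BAT exceeded spleen by 0.35 ± 0.06 (edgeR, adjusted p = 2.4e-04), SAT by 0.42 ± 0.07 (7.2e-05) and VAT by 0.43 ± 0.07 (3.2e-05). Als2cl measured 104, 120, 78.5 and 78.8 CPM in BAT, against 67.7, 73.6, 69.5 and 69.2 CPM in SAT, 71.9, 61.3, 52.4 and 46.4 CPM in VAT and 91.1, 82.7, 63.3 and 59.3 CPM in spleen. BAT lay above all SAT and VAT samples and overlapped spleen. Its differences were 0.42 ± 0.09 over spleen (adjusted p = 0.0012), 0.41 ± 0.11 over SAT (0.016) and 0.70 ± 0.11 over VAT (1.4e-05). The Als2cl difference between BAT and SAT was lost without BAT replicate 2 (adjusted p = 0.065) or SAT replicate 1 (0.13). Both differences between BAT and spleen were lost after thinning (adjusted p = 0.13 for Satb1 and 0.055 for Als2cl), and that of Satb1 without the T cell gate (0.090).

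Igfbp4 went the other way. It measured 133, 196, 294 and 165 CPM in BAT and 295, 280, 360 and 289 CPM in spleen, with SAT at 228, 239, 332 and 272 CPM and VAT at 232, 168, 287 and 346 CPM. BAT replicate 3 overlapped the other tissues, and the remaining BAT samples lay under all SAT and spleen samples. The log2 difference of BAT and spleen was -0.58 ± 0.12 (edgeR, adjusted p = 7.6e-04), that of BAT and VAT -0.39 ± 0.13 (0.047) and that of BAT and SAT -0.39 ± 0.13, which was not called (0.086). The call against VAT was lost with DESeq2 (0.29), without any 1 of 10 samples (BAT 1 and 4, SAT 2 and 4, VAT 1, 3 and 4, spleen 1, 2 and 3; adjusted p 0.050 to 0.24), and after thinning, where the difference was 0.02 (0.97). Against SAT it was called without BAT replicate 3 (-0.61, adjusted p = 9.9e-04), with library-size scaling (0.045) and with no low-count filter (0.0010). The unfiltered fit also called Igfbp4 lower in SAT (0.020) and VAT (0.035) than in spleen.

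Actn1 was called between VAT and BAT (0.29 ± 0.09 higher in BAT, adjusted p = 0.024) and between VAT and spleen (-0.33 ± 0.08, adjusted p = 0.0050). The first was lost with DESeq2 (0.052) and without BAT replicate 2 or 3 or VAT replicate 2 or 4 (adjusted p 0.056 to 0.13). Both were lost when cells with an S100a4 UMI were left out, as given below. Between SAT and spleen Actn1 was called with no low-count filter (-0.31, adjusted p = 0.011), without SAT replicate 2 (0.024) or VAT replicate 2 (0.045) and without the T cell gate (0.027). Stricter hashtags ended the calls of Als2cl (adjusted p = 0.24) and Itm2a (0.55) between BAT and SAT, of Lef1 (0.091) and Itm2a (0.10) between SAT and spleen and of Igfbp4 between BAT and VAT (0.12). Tcf7 and Bach2 were called in none of the 6 pairs. Tcf7 lay between 402 and 668 CPM and Bach2 between 41.1 and 84.5 CPM over the 16 samples, and all tissues overlapped.

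Of all 8706 genes tested in naive-enriched cells, 1.42% were higher in BAT than in SAT, beside 5 of the 9 genes (4.97% in either direction). In BAT against VAT 3.25% were higher and 4.77% lower, beside 6 and 1 of the 9 (8.02% in either direction). In BAT against spleen 4.41% were higher and 3.55% lower, beside 2 and 1 (7.96%). In SAT 3.6% were lower than in spleen, beside 3 of the 9 (6.36% higher, 9.96% in either direction), and in VAT 4.7%, beside 4 of the 9 (6.95% higher). Library-size scaling moved the share of higher among called genes from 28.6 to 18.0% for BAT and SAT, from 55.4 to 39.3% for BAT and spleen, from 59.7 to 48.2% for VAT and spleen and from 40.4 to 58.0% for SAT and VAT. Between SAT and VAT 1.19% were called and none of the 9. Of the 15 other naive genes, 7 were higher and 3 lower in VAT than in spleen. Klf2 (0.64 ± 0.10), a factor that keeps homing genes on, Klf3 (0.65 ± 0.10) and Ccr7 (0.48 ± 0.09) were among the higher ones, and Cd27 (-0.59 ± 0.09) and Rflnb (-0.51 ± 0.09) among the lower ones.

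**Figure D3:**
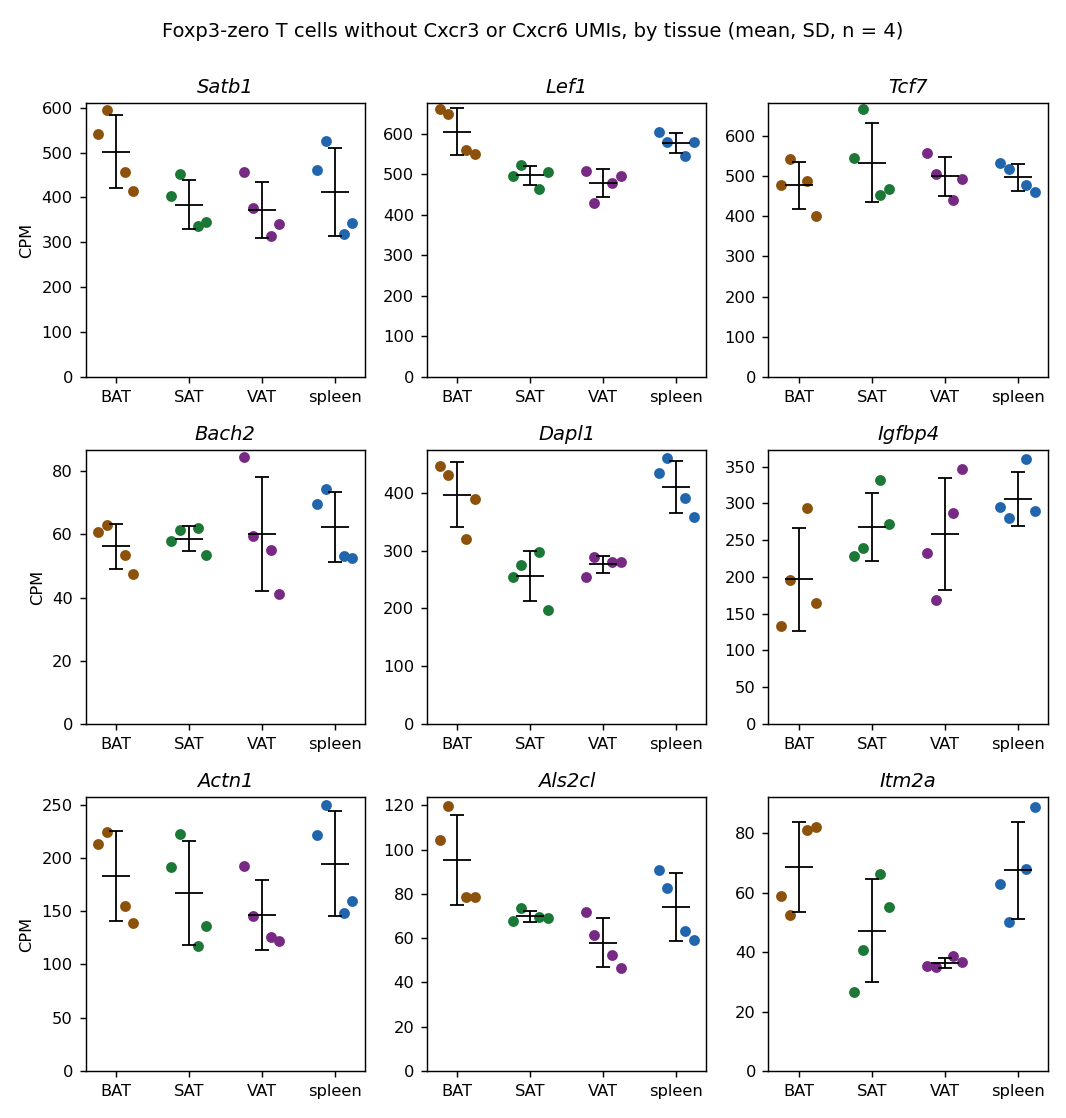
CPM of each of the 9 genes in naive-enriched cells (no Foxp3, Cxcr3 or Cxcr6 UMI) by tissue. Points are hashed samples, with the mean and SD of the 4 samples of a tissue. For Dapl1 and Lef1 both SAT and VAT lie under BAT and spleen, whereas Igfbp4 has its lowest mean in BAT (197 CPM) and Tcf7 shows no separation.

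Memory and effector genes, and immediate early and heat shock genes, moved with the tissue in these cells. The 12 memory and effector genes summed to 811 to 1325 CPM in BAT and 1060 to 1138 CPM in spleen, against 2964 to 3896 CPM in SAT and 3101 to 4723 CPM in VAT. Immediate early and heat shock genes summed to 349 to 445 CPM in spleen and 897 to 2829 CPM over the 3 fat depots. The 4 NK and NKT cell markers summed to 10.2 to 35.5 CPM in SAT, 7.61 to 26.3 CPM in VAT, 0.49 to 4.64 CPM in BAT and 1.49 to 7.74 CPM in spleen. There was no Ncr1 UMI in SAT or BAT. In SAT these UMIs were 64 of Cd160 and 21 of Klrb1c, with none of Zbtb16. The part of the last 2 lists was not tested. For the first, cells with an S100a4 UMI were also left out (4867 cells remained, an alternative chosen after seeing the data), and 12 of the 54 tests were called. Of all 8520 genes tested without the cells with an S100a4 UMI, 33 were called higher and 128 lower in BAT than in SAT. These counts were 125 and 251 for BAT over VAT, 408 and 323 for BAT over spleen and 26 and 40 for SAT over VAT. They were 348 and 170 for SAT over spleen and 481 and 299 for VAT over spleen.

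Without these cells Dapl1 was still higher in BAT than in SAT (0.43) and lower in SAT than in spleen (-0.43), but not called against VAT (0.23 and -0.23, adjusted p 0.11 and 0.069). Itm2a was still higher in BAT than in VAT (0.78) and lower in VAT than in spleen (-0.68). Its calls with SAT were lost (0.38 against BAT and -0.27 against spleen, adjusted p 0.22 and 0.27). Als2cl stayed higher in BAT than in VAT (0.47) and spleen (0.44), and lost its call between BAT and SAT (0.22, adjusted p = 0.46). Satb1 stayed higher in BAT than in spleen (0.37) and lost its calls of BAT against SAT (0.19, adjusted p = 0.21) and VAT (0.18, 0.13). Both Actn1 calls were lost, at 0.04 for BAT over VAT (adjusted p = 0.89) and -0.07 for VAT over spleen (0.74). None of the 4 Lef1 calls was left, and its differences between SAT or VAT and spleen were 0.03 and 0.04. Igfbp4 was lower in BAT than in each of the other tissues (-0.58 against SAT, -0.64 against VAT and -0.54 against spleen). Tcf7 was called higher in SAT (0.24, adjusted p = 0.028) and VAT (0.22, adjusted p = 0.031) than in spleen. Thinning every cell to 1300 UMIs before reading the classes, which puts 6725 cells in the naive-enriched class, gave Tcf7 the opposite direction (-0.33 for SAT and -0.34 for VAT against spleen, edgeR, adjusted p 0.010 and 0.0080). The thinned class held 1660 cells from BAT, 1314 from SAT, 1470 from VAT and 2281 from spleen, against 1567, 792, 912 and 2094 before. The added cells had a Foxp3, Cxcr3 or Cxcr6 UMI before thinning, and more of them came from SAT and VAT than from BAT and spleen. The direction of Tcf7 between these tissues differed between the 2 ways of choosing cells. The thinned classes also called Satb1 lower than in spleen in SAT (-0.90, adjusted p = 8.1e-07) and VAT (-0.68, 9.2e-05), and Igfbp4 likewise (-0.94, 5.97e-06, and -0.61, 0.0019). Actn1 was called there between BAT and SAT (0.80, adjusted p = 2.4e-04) and between SAT and spleen (-0.77, 2.0e-04).

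Among Foxp3-positive cells 13 hashed samples could be compared, with only BAT replicates 1 and 4 for BAT, and 11 of 54 tests were called. VAT was lower than spleen for 6 of the 9 genes, against 5.21% of 4817 genes called lower. Tcf7 measured 157, 87.4, 68.8 and 87.0 CPM in VAT and 251, 270, 178 and 161 CPM in spleen, without overlap (-1.13 ± 0.23, SE, edgeR, adjusted p = 8.4e-04). Actn1 was at 46.5, 4.37, 5.50 and 12.4 CPM in VAT and 73.5, 123, 51.0 and 90.9 CPM in spleen (-2.26 ± 0.45, adjusted p = 5.7e-04). Bach2 was at 11.6, 13.1, 24.8 and 24.9 CPM against 36.8, 51.5, 58.2 and 53.7 CPM (-1.49 ± 0.42, adjusted p = 0.015). In these 3 genes the VAT and spleen samples did not overlap, and the share of all genes without overlap is not given here. Satb1 (-1.68 ± 0.37), Dapl1 (-1.48 ± 0.38) and Lef1 (-0.90 ± 0.23) were the other 3. Dapl1 and Bach2 were lost without spleen replicate 2 (adjusted p = 0.089 and 0.078) and with DESeq2 (0.057 and 0.10), which also lost Lef1 (0.054). Memory and effector genes moved with this comparison, with 11 of 12 higher in VAT than in spleen (median 2.15), as did immediate early and heat shock genes, with 10 of 11 higher (median 4.84). The 12 memory and effector genes summed to 12130 to 16073 CPM in the Foxp3-positive cells of VAT, 8439 to 10492 CPM in SAT, 3485 to 5322 CPM in BAT and 1682 to 5080 CPM in spleen. The immediate early and heat shock genes summed to 355 to 495 CPM in spleen and 2437 to 7530 CPM over the fat depots. The part of these lists in the tissue differences was not tested.

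SAT was lower than spleen for Actn1 (-1.72 ± 0.47) and Dapl1 (-1.68 ± 0.43), against 3.18% of genes, and both were lost without SAT replicate 1 (adjusted p = 0.35 and 0.13), without spleen replicate 2 (0.061 and 0.077) and with DESeq2 (0.34 and 0.099). Actn1 was lost without SAT replicate 4 or spleen replicate 4 too (0.072 and 0.098). BAT was higher than VAT for Satb1 (2.72 ± 0.44), Lef1 (1.29 ± 0.31) and Tcf7 (1.25 ± 0.32), against 1.68% of genes. Satb1 was at 476 and 171 CPM in BAT and at 98.8, 26.2, 38.5 and 31.1 CPM in VAT. All 3 were lost without BAT replicate 1 (adjusted p 0.39 to 0.58), which leaves 1 BAT sample that is assumed to vary like the other groups. Lef1 and Tcf7 were also lost without VAT replicate 2 (0.058 and 0.079), and Tcf7 without BAT replicate 4 (0.15) or VAT replicate 3 (0.076). Library-size scaling moved the share of higher among called genes from 50 to 29.5% for BAT and SAT, from 48.8 to 34.4% for BAT and VAT, from 44.4 to 56.5% for SAT and VAT and from 63.6 to 73.9% for SAT and spleen. No gene of the 9 was called between BAT and SAT (1.87% of genes), BAT and spleen (0.498%) or SAT and VAT (0.374%). Without SAT replicate 3, however, Satb1 (2.04, adjusted p = 8.6e-04), Lef1 (1.29, 0.014) and Tcf7 (1.13, 0.039) were called higher in BAT than in SAT, and all 3 lower in SAT than in spleen (-1.03, -0.91 and -1.02, adjusted p 0.0035 to 0.027). Satb1 was called higher in SAT than in VAT without SAT replicate 4 (1.73, adjusted p = 0.049). Actn1 was called higher in BAT than in VAT without SAT replicate 3 (adjusted p = 0.039), VAT replicate 1 (0.0066) or spleen replicate 1 (0.034). It was also called without BAT replicate 4 (2.68) and without both weak hashtags, which each leave 1 BAT sample. Igfbp4 was called lower in VAT than in spleen without VAT replicate 1 (-3.29, adjusted p = 6.0e-04) or spleen replicate 1 (0.026) and with stricter hashtags (0.046). With no low-count filter 5 calls were gained: Satb1 of SAT against BAT and VAT, Actn1 of BAT against VAT, and Igfbp4 of spleen against BAT and VAT (adjusted p 2.0e-04 to 0.015). Igfbp4 was at 0 and 10.7 CPM in BAT and at 18.4, 79.3, 51.0 and 99.2 CPM in spleen, without overlap and without a call (adjusted p = 0.41).

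Whether the Foxp3 contrast itself differed between a fat depot and spleen was tested as an interaction over the same 13 samples (9981 genes). Between SAT and spleen it differed for Lef1 and Satb1, against 1.24% of all genes. Foxp3-positive cells of SAT had 121, 245 and 108 CPM of Lef1 in replicates 1, 3 and 4, and Foxp3-zero cells 167, 264 and 202 CPM. In spleen the values of Lef1 were 208, 246, 171 and 202 CPM against 591, 546, 513 and 549 CPM. The drop of Lef1 was thus smaller in SAT, by 1.00 ± 0.20 on the log2 scale (SE, edgeR, adjusted p = 7.3e-04), and leaving out each sample gave 0.85 to 1.19, called in 13 of 13 cases. Satb1 was at 105, 256 and 64.3 CPM in the Foxp3-positive cells of SAT and 120, 188 and 125 CPM in its Foxp3-zero cells. In spleen Satb1 was at 221, 202, 91.0 and 149 CPM against 454, 496, 305 and 333 CPM. The difference of the contrasts was 1.22 ± 0.25 (adjusted p = 0.0013), and it was lost without SAT replicate 3 (0.89, adjusted p = 0.17). These leave-outs were chosen after seeing the data. No other of the 9 genes differed between SAT and spleen, and none did between VAT and spleen (1.63% of genes) or BAT and spleen (0.0902%). In SAT the Foxp3-zero cells hold many cells with a Cxcr3 or Cxcr6 UMI, as given above, and the part of that in the interaction was not tested.

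How many of the 9 genes a single cell showed was counted at 1300 UMIs per cell, with shallower cells left out (48 of 1567 from BAT, 56 of 792 from SAT, 11 of 912 from VAT, 16 of 2094 from spleen). Naive-enriched cells had a mean of 2.33 ± 0.20 of the 9 in BAT, 2.35 ± 0.19 in spleen, 2.11 ± 0.21 in SAT and 1.98 ± 0.11 in VAT (SD, n = 4). Foxp3-positive cells had 1.12 in BAT (2 samples), 0.88 ± 0.23 in spleen, 0.63 ± 0.19 in SAT and 0.41 ± 0.07 in VAT. Cells with a Cxcr3 or Cxcr6 UMI had 1.45 ± 0.42 in spleen, 0.93 ± 0.22 in BAT, 0.63 ± 0.05 in VAT and 0.57 ± 0.09 in SAT. None of the 9 was detected in 6.6 ± 1.1% of naive-enriched cells of BAT and 7.2 ± 2.3% of those of spleen, against 14.4 ± 3.0% in SAT and 17.0 ± 1.6% in VAT.

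Mean shares of naive-enriched cells with a Dapl1 UMI at that depth were higher in BAT and spleen than in SAT and VAT, as the mean CPM were, with 28.5 ± 3.5% of cells from BAT, 27.9 ± 3.3% from spleen, 21.3 ± 3.5% from SAT and 19.8 ± 1.1% from VAT. Without thinning the shares were 47.2, 50.3, 36.1 and 35.6%. No order of BAT and spleen, or of SAT and VAT, is read from the shares, since it went against that of the CPM. Itm2a was found in 7.13 ± 1.59% of cells in BAT, 7.41 ± 1.85% in spleen, 4.53 ± 2.80% in SAT and 4.21 ± 0.82% in VAT, and without thinning in 21.8, 24.1, 15.6 and 16.6%. As a measure of free RNA, 30 cells with B cell markers and few T cell UMIs (median 4488 UMIs, against 4847 in T cells) were read without thinning. Because cells with more T cell UMIs were left out of the 30, their shares may understate free T cell RNA. None of the 30 had a UMI of Tcf7, Dapl1, Als2cl or Itm2a, which allows a share of up to 10%, against 71.5, 31.6, 20.8 and 17.4% of T cells. Igfbp4 and Actn1 were each found in 3.33% of the 30, Lef1 in 13.3% and Satb1 in 20%. Bach2, which B cells also express, was found in 43.3% of them and in 18.0% of T cells.

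Which genes mark the same naive-enriched cells was read from odds ratios of co-detection, taken within each hashed sample over quartiles of total UMIs after thinning, as a description with no test. Cells of 1 library share its depth and its free RNA. Of the 36 pairs, Satb1 with Lef1 was found together more often than by their separate shares, with a median odds ratio of 1.59 over 16 samples, above 1 in 15 of them, and 1106 cells with both. Tcf7 with Actn1 had 1.52 (15 of 16), Lef1 with Igfbp4 1.53 (14 of 16), Satb1 with Actn1 1.41 (14 of 16) and Lef1 with Actn1 1.59 (13 of 16). Satb1 with Bach2, at 1.68, rested on 177 cells and was above 1 in 12 of 16. Lef1 and Tcf7, which encode related factors, were at 1.17 (12 of 16).

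Itm2a stood out in this map by its low values. Igfbp4 with Itm2a had a median odds ratio of 0.71, below 1 in 14 of 16 samples, with 59 cells holding both and a ratio of 0.74 over all strata pooled. Dapl1 with Itm2a had 0.72, below 1 in 11 of 16 samples, with 75 cells and 0.82 pooled. For Als2cl with Itm2a (0.48, 27 cells) and Bach2 with Itm2a (0.50, 26 cells) the few joint cells left samples at 0, and the pooled ratios were 0.81 and 1.09. Pooled ratios were added after the values per sample had been seen. Only with Satb1 was the median for Itm2a above 1, at 1.42 (11 of 16 samples, 159 cells).

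**Figure D4:**
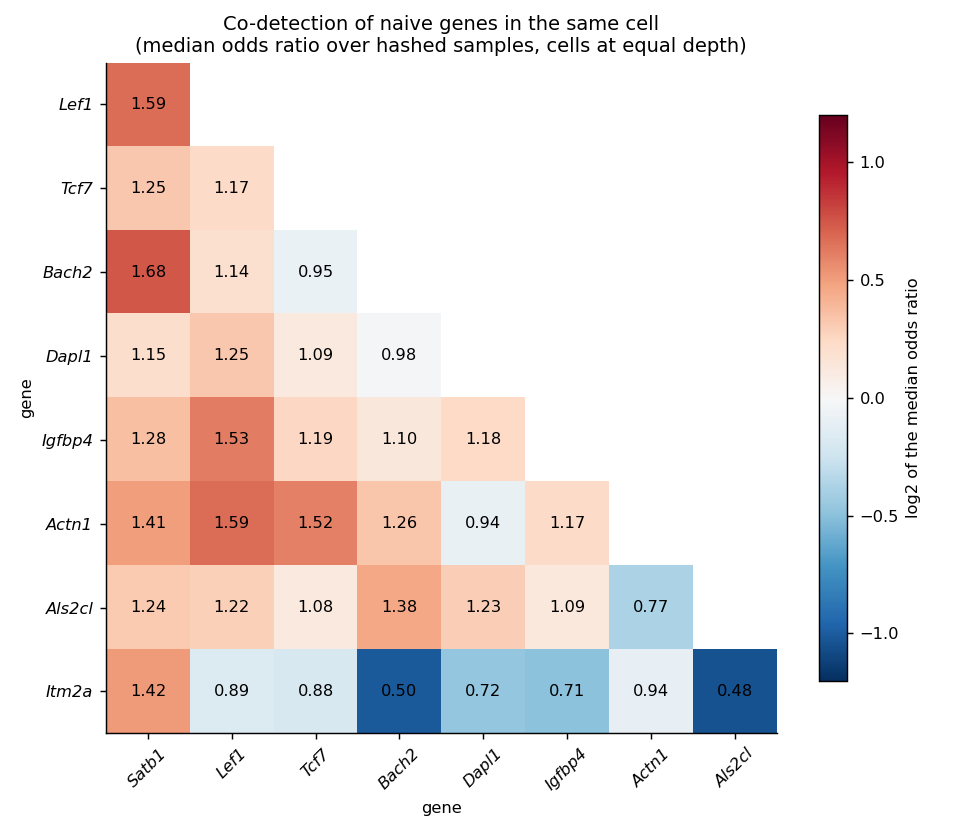
Median odds ratio of co-detection for each of the 36 pairs of the 9 genes in naive-enriched cells thinned to 1300 UMIs, over 16 hashed samples, on a log2 colour scale. The Itm2a row holds most of the ratios under 1 (from 0.48 with Als2cl), and Satb1 with Lef1 (1.59) and Satb1 with Bach2 (1.68) are among the highest.

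Cells with an Itm2a UMI and no Dapl1 UMI (581) were then compared with cells with the reverse (1649), within the 11 hashed samples that had at least 20 of each. Igfbp4 was lower in Itm2a-only cells, at 138, 258 and 332 CPM (lowest, median and highest) against 149, 323 and 388 CPM in Dapl1-only cells. The groups overlapped, 8 of 11 samples were lower, and the log2 fold change was -0.38 ± 0.07 (SE, edgeR, adjusted p = 9.3e-05). Satb1 was higher, at 398, 476 and 678 CPM against 289, 412 and 543 CPM, in 10 of 11 samples (0.19 ± 0.06, adjusted p = 0.041). The Satb1 call was lost when any of 7 of the 11 samples was left out: BAT replicates 2 and 4, VAT replicate 3 and the 4 spleen samples (adjusted p 0.051 to 0.18). It was also lost after thinning (0.21), with stricter hashtags (0.16) and with no low-count filter (0.93). Of all 4529 genes tested, 1.24% were called higher and 3.02% lower. Lef1 (-0.14 ± 0.05, adjusted p = 0.17, but 0.0027 with no low-count filter and 0.012 with sums per library), Bach2 (0.22 ± 0.13), Als2cl (-0.14 ± 0.12), Tcf7 (0.02 ± 0.06) and Actn1 (-0.01 ± 0.09) did not pass the test.

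Outside the 9 genes, among called genes with a mean of at least 20 CPM and the same sign in at least 80% of the samples, those with the largest rise in Itm2a-only cells were Gadd45b, a stress response gene (40.8 ± 31.6 against 14.5 ± 11.6 CPM, mean ± SD, n = 11; log2 fold change 1.60), Ahnak (0.97), Ptms (0.97), Id3, an inhibitor of E proteins (0.85), and Tubb2a (0.83). Lower were Klrd1 (-0.96), Pdlim4 (-0.76), Tent5a (-0.72), Cd55 (-0.69) and Klhdc2 (-0.68). Of 6 memory and effector genes tested 3 were higher (Ccl5 at 1.57, Ahnak and Itgb1). Of 9 immediate early and heat shock genes 2 were higher (Egr1 at 1.16 and Dusp1 at 0.65). Ccl5 and Egr1 were called but did not meet the rule of mean CPM and same sign given above. Of the 15 other naive genes 2 were lower (Ly6c1 and Il7r). With library-size scaling, the share of higher among called genes went from 29.0 to 81.2% and the median of all genes from 0.01 to 0.13. Genes of ribosomal proteins, a list chosen after its values were seen, were lower for 71 of 82 and higher for none (median -0.23), and their share of all UMIs was 27.7, 31.8 and 34.4% in Itm2a-only cells against 31.6, 35.2 and 38.3%, lower in 11 of 11 samples. Mean UMIs per cell of a sample had a median over the 11 samples of 5030 in Itm2a-only cells against 5525 in Dapl1-only cells.

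**Figure D5:**
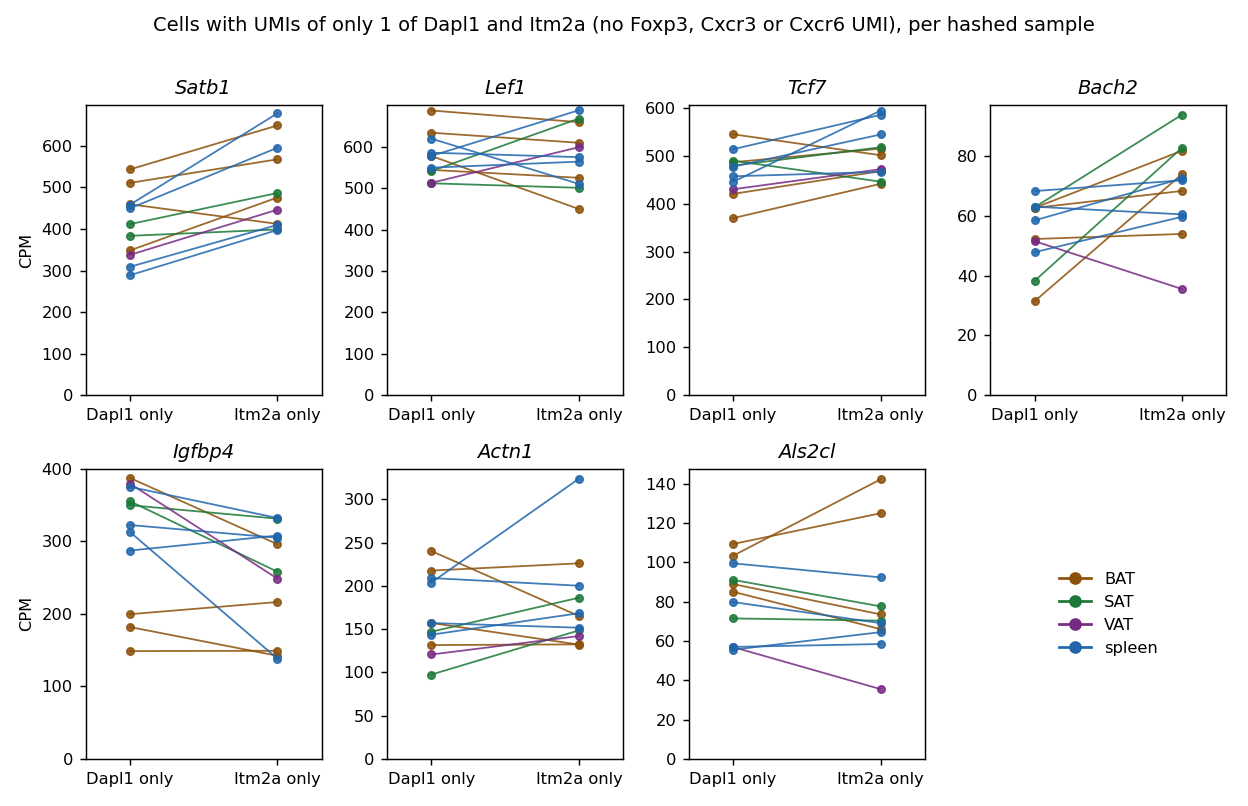
CPM of the 7 other genes in Dapl1-only and Itm2a-only naive-enriched cells. Each line joins the 2 classes of 1 of 11 hashed samples, coloured by tissue. Igfbp4 falls in 8 of the 11 lines and Satb1 rises in 10. Tcf7 and Bach2 rise in 9 lines each without passing the test.

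Itm2a-only cells made up 17.5 ± 5.5% of the cells with 1 of the 2 markers from BAT, 18.0 ± 4.4% of those from spleen, 14.7 ± 9.6% from SAT and 15.2 ± 1.0% from VAT (SD, n = 4, at 1300 UMIs). Without thinning the means were 25.1% for BAT, 24.5% for spleen, 25.3% for SAT and 25.0% for VAT. None of the 6 tissue pairs passed a 2-sided exact permutation test within experiments (smallest p = 0.33, adjusted 0.75), a design of 36 arrangements that allows no p under 0.056. SAT ranged from 4.76 to 26.2% and overlapped all other tissues.

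The genes whose detection went most with Dapl1 across naive-enriched cells were ribosomal: Rps24, Rps28, Rpl23, Rpl39 and Rpl13, with median Pearson correlations over 16 samples of 0.14, 0.14, 0.13, 0.12 and 0.12, above 0 in every sample. With Itm2a they were Cd3d (0.07), Grb2, Atp5g1, Otulinl and Selenof (all 0.05), above 0 in 10 to 14 samples. These were the highest of 1410 genes in 5234 cells, and values this low in sparse counts are a description only.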

How the data were processed

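Hashed CD4 T cells of 4 tissues were measured in 2 droplet libraries. The deposited values are raw UMI counts per gene and cell that the authors made with Cell Ranger 6.1.0, per the file headers, on build mm10, per the submitters' processing notes, which also name Seurat and bcl2fastq. No further normalization was in the files. Cells with at least 500 genes, 1000 UMIs and at most 10% mitochondrial UMIs were kept. Hashtag counts were assigned with a mixture model (posterior of at least 0.95), which was revised after assignment counts had been seen. Multiplets by hashtag (10.0 and 16.1% of kept cells) were removed, and 2 cells of 1 sample in a droplet cannot be found this way. The T cell gate asked for at least 2 T cell marker UMIs, fewer than 2 of B cells, fewer than 3 each of myeloid cells and fibroblasts, and under 1% erythroid UMIs.

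Counts were summed per hashed sample and class (at least 20 cells) and tested with edgeR 4.0.16 (quasi-likelihood, TMM, filterByExpr with a minimum count of 10, R 4.3.3), with the hashed sample as a block for classes and the experiment as a covariate for tissues. P-values were adjusted by Benjamini-Hochberg over all genes of a contrast at 0.05. Shares were compared by exact permutation tests in Python 3.11.15 (scipy 1.17.1). DESeq2 1.42.0, library-size scaling, no filter, thinning, stricter hashtags, no gate, sums per library and leaving out each sample were alternatives. The fitting was tested on simulated data. Library depth was 29153747 and 43879975 UMIs, and limits for a count of 0 (3 UMIs) cover counting error only. Coordinates are from GENCODE on GRCm38, matched by gene ID for 9 of 9 genes, and promoter windows from RefSeq. The 9 genes and all lists were chosen with earlier results of these data known. Named genes of the comparison of Itm2a-only with Dapl1-only cells were the 5 called genes with the largest fold in each direction, at a mean of at least 20 CPM and the same sign in at least 80% of samples. Some members of the other lists are counted but not reported here by name.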

Additional observations from a re-analysis of the deposited data

Results flagged for a closer look

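Satb1 in the Foxp3-positive cells of VAT replicate 1 was at 98.8 CPM, far from the other 3 VAT samples at 26.2 to 38.5 CPM. Dapl1 in the Foxp3-positive cells of spleen replicate 2 was at 103 CPM, with the other 3 spleen samples at 57.8 to 61.3 CPM. They were the only 2 such gaps in 126 groups of 4 samples searched, and chance gives about 1 in 20 groups.

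The Foxp3 contrast differed between SAT and spleen for Lef1 by 1.00 and for Satb1 by 1.22 on the log2 scale, both smaller drops in SAT, in a test of the difference itself. Without SAT replicate 3 the Satb1 difference was 0.89 and not called (adjusted p = 0.17).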

How the results depend on the processing

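The counts of called genes among the 9 held within 1.5 times in most settings. Of 9 tests of Foxp3-positive against Foxp3-zero cells, 8 to 9 were called when a sample was left out, and 6 to 9 in the other settings. Within cells without Cxcr3 and Cxcr6 UMIs 6 to 9 were called in the other settings, and for the chemokine receptors 7 to 9. Tissue pairs in all Foxp3-zero cells gave 36 to 38 of 54 when a sample was left out and 34 to 39 in the other settings. Those in naive-enriched cells gave 18 to 22 when a sample was left out and 12 to 29 in the other settings. Naive-enriched cells without an S100a4 UMI gave 12. Among Foxp3-positive cells 11 calls became 6 with DESeq2, and 7 to 18 when a sample was left out. Itm2a-only against Dapl1-only cells gave 1 to 2 calls when a sample was left out, and 1 with thinning, with stricter hashtags and without both weak hashtags.

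Directions turned as follows, and the cause was not tested. Bach2 was at 0.086 between Foxp3-positive and Foxp3-zero cells in experiment 2 alone. After thinning, which re-reads the classes, Tcf7 in naive-enriched cells was at 0.30 for BAT and SAT, 0.31 for BAT and VAT, -0.33 for SAT and spleen and -0.34 for VAT and spleen, and Igfbp4 at 0.019 for BAT and VAT. Without S100a4 UMIs Lef1 was at 0.027 for SAT and spleen and 0.043 for VAT and spleen.

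Over all genes, thinning left fewer genes to test and fewer calls (266 against 1264 for Foxp3, 204 against 774 within cells without Cxcr3 and Cxcr6, 819 against 3600 for the chemokine receptors). Sums per library gave 1992 and 6253 calls for the last 2. In Foxp3-positive cells, BAT and SAT went from 90 calls to 1 without BAT replicate 1, and SAT and VAT from 18 to 2 with DESeq2. Within cells without Cxcr3 and Cxcr6, no low-count filter gave 1356 Foxp3 calls against 774. Itm2a-only against Dapl1-only cells had 193 calls, 405 with library-size scaling, 63 after thinning and 321 with sums per library. Thinned sums of Foxp3-positive cells between tissues could not be fitted and were not run.

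Counts of called genes between tissues that moved by over 1.5 times are given with, in parentheses, the lowest and highest count among the settings that moved them that far. In all Foxp3-zero cells the tissue pairs had 3401 for BAT and SAT (1317 to 1865), 3005 for BAT and VAT (1124 to 1981), 794 for BAT and spleen (234), 445 for SAT and VAT (112 to 273), 4051 for SAT and spleen (1613) and 3648 for VAT and spleen (1407). In naive-enriched cells the tissue pairs had 433 for BAT and SAT (161 to 771), 698 for BAT and VAT (376), 693 for BAT and spleen (179 to 425), 104 for SAT and VAT (8 to 197) and 867 for SAT and spleen (518 to 574). In Foxp3-positive cells the tissue pairs had 90 for BAT and SAT (1 to 40), 166 for BAT and VAT (22 to 105), 24 for BAT and spleen (12 to 46), 18 for SAT and VAT (2 to 54), 420 for SAT and spleen (218 to 251) and 588 for VAT and spleen (349). The settings were thinning, stricter hashtags, DESeq2, no filter, no gate, the replicate block, no S100a4 UMI, neither weak hashtag and 1 sample left out.

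Correlations between tissues of the differences between replicates did not show a pairing by replicate number (12 correlations of -0.17 to 0.05, none over 0.1). Such differences also hold sampling noise, so low correlations cannot tell whether tissues with the same number came from the same animal. The main tissue fits used no such pairing. A replicate block added 1 call of the 9 genes, Igfbp4 between BAT and SAT in naive-enriched cells (-0.40, adjusted p = 0.0499), and took the count for BAT and VAT in Foxp3-positive cells from 166 to 105.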
